A study of Mus musculus with 2 samples.

Results

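Natural killer (NK) cells and type 1 innate lymphoid cells (ILC1) were picked out of 2 single-cell RNA libraries of mouse liver nonparenchymal cells, which are what remains of a liver digest after a slow spin has pelleted most hepatocytes. A barcode was a member when it held at least 500 unique molecular identifiers (UMIs, counted RNA molecules), at most 20% mitochondrial UMIs, at least 2 UMIs over Ncr1, Klrb1c, Klre1 and Klra8 together, and 0 UMIs of Cd3d, Cd3e, Cd79a, Ms4a1, Siglech and Cd209a. There were 94 members among the 9146 barcodes within the depth and mitochondrial limits, out of 10000 deposited. The first library came from wild-type mice and the second from yap1 flox/flox Lyz2-Cre mice, called yap1 here; the animals were C57BL/6, all had received CCl4 4 times as a fibrosis model, and each library was a sample from 3 mice. No animal without CCl4 was included, the age of the mice is not stated in the labels, and the Lyz2 promoter that drives Cre is known chiefly for its activity in macrophages, monocytes and neutrophils. With 1 library per genotype no test of genotype exists, no p-value is given, and mouse, library and genotype cannot be told apart; intervals are 95% and cover counting error only.

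NK cells are circulating lymphocytes that kill infected or transformed cells by releasing granzymes and perforin, and ILC1 are their tissue-resident relatives, abundant in the liver and known for cytokine and chemokine release. Neither carries a T cell receptor. Both are steered by germline-encoded receptors: NKp46 (Ncr1), the NKR-P1 family (Klrb1), the NKG2 family with CD94 (Klrk1, Klrc1, Klrc2, Klrd1) and, in mice, the Ly49 family (Klra genes), many members of which read MHC class I on neighbouring cells. In liver fibrosis NK cells are known for killing activated stellate cells.

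The wild-type library held 55 members among 4893 cells, a share of 1.12% (0.848 to 1.46, exact Clopper-Pearson). In the yap1 library there were 39 members among 4253 cells, or 0.917% (0.653 to 1.25). The yap1 share was 0.816 times the wild-type share, with an interval of 0.527 to 1.25 that spans 1. T cells, defined by Cd3d and Cd3e and holding none of the 4 markers, numbered 387 and 383, so that the members came to 14.2 per 100 T cells in wild type and 10.2 in yap1. Depth was higher in yap1: members had a median of 6247 UMIs in wild type (2189 to 11907) and 7742 in yap1 (3254 to 24608). They summed to 340763 and 317332 UMIs. Median mitochondrial shares were 3.55% and 2.995%. Of the 5 barcode sequences that occur in both libraries, 0 belonged to members.

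The 4 markers chose the members, so their counts are a description. Ncr1 had a UMI in 51 of 55 wild-type and 36 of 39 yap1 members, Klrb1c in 52 and 36, and Klre1 in 49 and 36. Klra8, which encodes Ly49H, the receptor by which NK cells recognise mouse cytomegalovirus, had a UMI in 10 and 13. At least 5 marker UMIs were held by 53 wild-type and 38 yap1 members, and 0 members held 3 or 4. Just inside it were 2 wild-type members and 1 yap1 member with exactly 2 marker UMIs, and just outside were 21 and 18 otherwise passing barcodes with 1. The exclusion of Cd3d and Cd3e removed more barcodes than the 55 and 39 that became members. In wild type 68 barcodes and in yap1 77 had at least 2 marker UMIs together with Cd3d or Cd3e. Of these, 61 and 69 had at least 2 Cd3 UMIs and passed the other exclusions. Their Cd3g, a further subunit of the T cell receptor complex, stood at 937 and 1038 UMIs per 1000000 (CPM), against 897 and 762 in T cells. In the members Cd3g stood at 14.7 and 81.9 CPM, and all 26 yap1 UMIs came from 3 cells.

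Markers of several other lineages were sparse in the members, but not those of all. The plasmacytoid dendritic cell list summed to 429 and 349 UMIs, of which Irf8 gave 377 and 293. The T cell list summed to 109 and 86 UMIs, with 3 or more in 20 and 11 members. Its gene Cd28 had 82 and 51 UMIs, 241 and 161 CPM against 449 and 423 in T cells. The gamma delta T cell genes Cd163l1, Sox13 and Blk had 0 UMIs. Further B cell markers summed to 9 and 1 UMIs, stellate cell markers to 3 and 1, and Kupffer cell markers to 28 and 13, with Vsig4 and Timd4 at 0 in both libraries. Neutrophil markers summed to 44 and 27 UMIs, and monocyte and macrophage markers to 286 and 262, with a median of 4 and 5 per cell and with Gpnmb and Trem2 at 0 in both. Of the monocyte and macrophage UMIs, Ccr2 gave 151 and 105, at 3.66 and 2.17 times the T cell level, and Ctss 22 and 23. The list of type 2 and type 3 innate lymphoid cell markers summed to 59 and 68 UMIs, with Il1rl1, Il13, Il5, Il22, Il17a and Il23r at 0 in both libraries. Its gene Gata3 gave 34 and 26 of them, with a UMI in 21 wild-type and 15 yap1 members, at 1.34 and 1.21 times the T cell level. Nearly all the others came from Klrg1, which is described below as a receptor of mature NK cells. A total of 4 single members stood apart, and results that rest on them are given with and without them. The deepest yap1 member (24608 UMIs, 7.75% of the yap1 member total) held 2 Klre1 UMIs and 0 of Ncr1, Klrb1c and Klra8. It carried 11 Xcr1, 11 Clec9a and 9 Flt3 UMIs, genes of type 1 conventional dendritic cells, at which the other 38 yap1 members had 0. It also held 548 of the 575 Cd74 UMIs of the yap1 members, so its transcripts go against the NK and ILC1 label. Another yap1 member held 338 of 443 hepatocyte-marker UMIs, and yet another held 112 of 147 endothelial-marker UMIs. The wild-type members summed to 85 and 51 for these lists, with at most 5 in a cell. The last was a wild-type member (7730 UMIs, 2 Ncr1 and 3 Klre1 UMIs) in which Ccl3, Ccl4 and Xcl1 made up 20.6% of all UMIs.

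Yap1 itself had 0 UMIs in the members of both libraries, as had its paralogue Wwtr1 and the dopamine receptor gene Drd2. The exact interval of a count of 0 reaches up to 10.8 CPM in wild type and 11.6 CPM in yap1. The deletion can therefore not be checked in these cells. Lyz2, whose promoter drives Cre, summed to 19 UMIs over the wild-type members and 10 over those of yap1, 55.8 and 31.5 CPM, compared with 400 and 607 CPM in the T cells. The T cell barcodes also held more monocyte and macrophage marker UMIs, 1243 and 1939 CPM against 839 and 826 in the members. For hepatocyte markers the levels were 1039 and 2713 CPM against 249 and 1396. Where the Lyz2 UMIs of the T cell barcodes came from was not tested.

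Receptor genes stood far above their level in T cells, to which the members were compared within each library. Because the rule itself divides these classes, the values are a description. Among 4249 genes with at least 20 member UMIs, 7.06% were at least 2-fold higher in members than in T cells in both libraries. This held for 9 of 9 genes of the NKG2 and NKR-P1 list, which also counts Klrg1, and for 4 of 4 Ly49 genes. Klrk1, which encodes the activating receptor NKG2D, stood at 939 CPM in both libraries, compared with 61.4 and 37.6 in T cells. It had a UMI in 54 of 55 and 39 of 39 members. Klrd1, the CD94 partner chain, stood at 801 CPM in wild type and 936 in yap1, against 128 and 122 in T cells. Its inhibitory partner Klrc1 (NKG2A) stood at 813 and 671 CPM, and the activating Klrc2 at 511 and 438. The signalling chains that these receptors use were also high: Tyrobp (DAP12) stood at 1872 and 2190 CPM against 97.1 and 249 in T cells, and Fcer1g at 2075 and 2184 against 126 and 214.

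**Figure D1:**
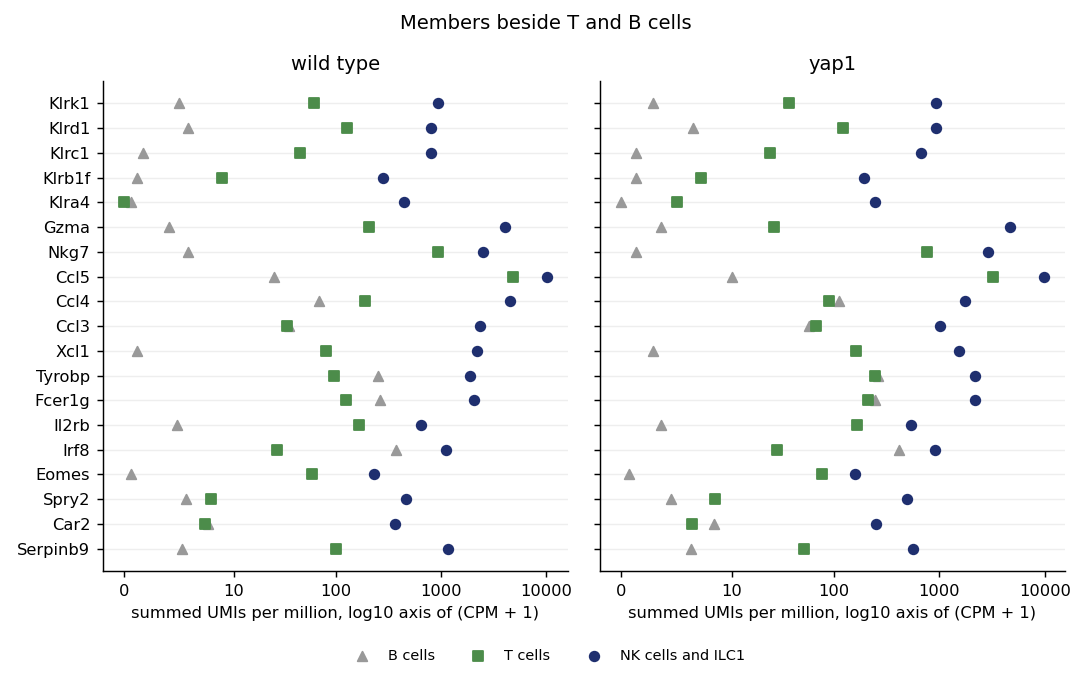
Levels of receptor, adaptor, effector and chemokine genes in NK cells and ILC1, T cells and B cells of the wild-type and yap1 libraries, as summed CPM on a log10 axis of CPM + 1, 1 point per class. The members lie to the right of both other classes for each gene shown, with Klrk1 at 939 CPM in both libraries and Ccl5 at 10013 and 9681 CPM.

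Among effector genes, 10 of 18 measured cytotoxicity genes and 6 of 10 cytokine and chemokine genes passed 2-fold over T cells in both libraries. Gzma, the granzyme with most UMIs, stood at 4015 CPM in wild type and 4642 in yap1, compared with 207 and 26.8 in T cells. The granule protein gene Nkg7 stood at 2506 and 2868 CPM, and perforin (Prf1) at 114 and 117 against 14.8 and 8.39. Ccl5, a chemokine that draws T cells and monocytes, was the leading chemokine at 10013 and 9681 CPM. T cells also carried it, at 4810 and 3248. Xcl1, the ligand of the receptor XCR1 on type 1 dendritic cells, stood at 2198 and 1528 CPM in the members against 80.1 and 164 in T cells. Without the wild-type member rich in chemokines the wild-type Xcl1 level was 1315 CPM, 16.4 times that of T cells. The interleukin receptor chains Il2rb (649 and 542 CPM) and Il18rap (417 and 312 CPM) exceeded T cells as well, at 165 and 168, and 36.6 and 32.9. None of the 16 interferon-stimulated, 12 heat shock and 15 MHC class I genes passed 2-fold, and beside 7.06% of all genes nothing is read from counts over lists of this size. Outside these lists, Spry2, an inhibitor of receptor tyrosine kinase signalling, was 81.9 and 74.7 times the T cell level, and the carbonic anhydrase gene Car2 76.6 and 68.3 times. Irf8, a transcription factor better known from myeloid cells, stood at 1106 and 923 CPM against 27.0 and 28.5 in T cells.

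The sequences before the transcription start are shown for a few of the receptor and effector genes described here, with a short motif marked. TGTGGT, the core of the RUNX binding motif, was searched on both strands in the 250 bases upstream of each RefSeq start (GRCm38). It was 1 of 11 short motifs looked at and the choice followed the matches, and it overlaps none of the other letters capitalised here. It occurred in 14% of 32851 windows, and 15.9% of 27025 genes had it in at least 1 of their windows. Of 12 genes looked at outside the Ly49 family, 7 (Ncr1, Klrb1c, Klre1, Xcl1, Gzma, Ccl3, Prf1) had a match in at least 1 window and 5 (Eomes, Serpinb9, Itga1, Tnfsf10, Nr4a3) had none. Of 5 Ly49 genes (Klra3, Klra4, Klra7, Klra8, Klra9), 0 had a match. Capitals mark the motif, read as TGTGGT or, on the other strand, ACCACA, and each sequence runs 5′ to 3′ on the strand of its gene. The windows are Ncr1 at chr7:4337465-4337714 (plus strand), Klrb1c at chr6:128788642-128788891 (minus), Gzma at chr13:113100982-113101231 (minus), Xcl1 at chr1:164935523-164935772 (minus), and the Ly49 genes Klra4 at chr6:130067272-130067521 and Klra9 at chr6:130193113-130193362 (both minus).
Ncr1: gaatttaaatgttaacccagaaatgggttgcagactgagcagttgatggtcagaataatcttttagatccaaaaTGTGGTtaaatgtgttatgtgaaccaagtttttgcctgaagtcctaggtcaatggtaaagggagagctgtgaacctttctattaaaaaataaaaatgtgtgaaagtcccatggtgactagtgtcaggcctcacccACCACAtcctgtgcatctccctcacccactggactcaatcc
Klrb1c: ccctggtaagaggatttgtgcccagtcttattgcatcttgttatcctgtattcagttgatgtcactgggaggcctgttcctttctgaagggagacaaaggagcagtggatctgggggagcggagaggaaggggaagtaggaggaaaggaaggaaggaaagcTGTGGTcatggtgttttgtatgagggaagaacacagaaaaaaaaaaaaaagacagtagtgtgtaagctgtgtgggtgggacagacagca
Gzma: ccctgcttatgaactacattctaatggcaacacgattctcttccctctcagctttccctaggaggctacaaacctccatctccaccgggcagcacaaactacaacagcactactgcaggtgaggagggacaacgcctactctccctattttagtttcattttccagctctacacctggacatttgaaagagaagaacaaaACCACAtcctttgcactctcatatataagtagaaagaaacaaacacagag
Xcl1: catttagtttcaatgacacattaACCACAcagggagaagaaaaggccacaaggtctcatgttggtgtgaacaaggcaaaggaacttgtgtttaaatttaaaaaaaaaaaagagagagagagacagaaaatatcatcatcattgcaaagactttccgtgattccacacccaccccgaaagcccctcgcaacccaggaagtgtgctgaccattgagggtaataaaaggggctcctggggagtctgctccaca
Klra4: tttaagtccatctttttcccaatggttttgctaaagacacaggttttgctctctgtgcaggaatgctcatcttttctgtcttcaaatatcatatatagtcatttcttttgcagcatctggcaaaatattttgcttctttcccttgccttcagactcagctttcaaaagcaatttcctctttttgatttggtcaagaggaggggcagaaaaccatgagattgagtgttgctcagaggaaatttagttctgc
Klra9: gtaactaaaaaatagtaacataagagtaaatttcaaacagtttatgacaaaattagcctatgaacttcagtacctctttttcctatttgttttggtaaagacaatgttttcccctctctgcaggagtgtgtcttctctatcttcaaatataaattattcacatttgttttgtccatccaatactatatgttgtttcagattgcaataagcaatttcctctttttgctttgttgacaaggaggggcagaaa
The match lay 50 bases before the start in Gzma, 89 in Klrb1c and 227 in Xcl1, and Ncr1 held 2, at 41 and 176 bases. The Klra4 and Klra9 windows, without a match, belong to Ly49 genes that are described below as unevenly shared among the members. A match is a description of letters and says nothing about binding in these cells.

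NK cells and ILC1 were then separated within the members. A member was put on the NK side when it had a UMI of Eomes, Itga2, S1pr5 or Cma1 and none of Itga1, Tnfsf10, Cxcr6, Il7r or Cd200r1, and on the ILC1 side in the reverse case. Eomes is the transcription factor that separates NK cells from ILC1, Itga2 (CD49b) and Itga1 (CD49a) are the surface integrins in common use, and Cxcr6 and Il7r mark the resident cells. In wild type 23 of 55 members (41.8%, 28.7 to 55.9) lay on the NK side and 25 (45.5%, 32.0 to 59.4) on the ILC1 side. In yap1 20 of 39 (51.3%, 34.8 to 67.6) lay on the NK side and 11 (28.2%, 15.001 to 44.9) on the ILC1 side. The intervals of both shares overlap between the libraries. After thinning each cell to 1000 UMIs the wild-type ILC1 share was 27.3%. Over 11 alternatives, thinning among them, the ILC1 share lay between 27.3% and 51.5% in wild type and between 15.4% and 30.6% in yap1. Genes of both sets occurred in 5 wild-type and 7 yap1 members, and of neither in 2 and 1, the yap1 one being the deepest member. ILC1-side members were the deeper ones, with medians of 6373 and 9281 UMIs against 5453 and 6345 on the NK side.

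**Figure D2:**
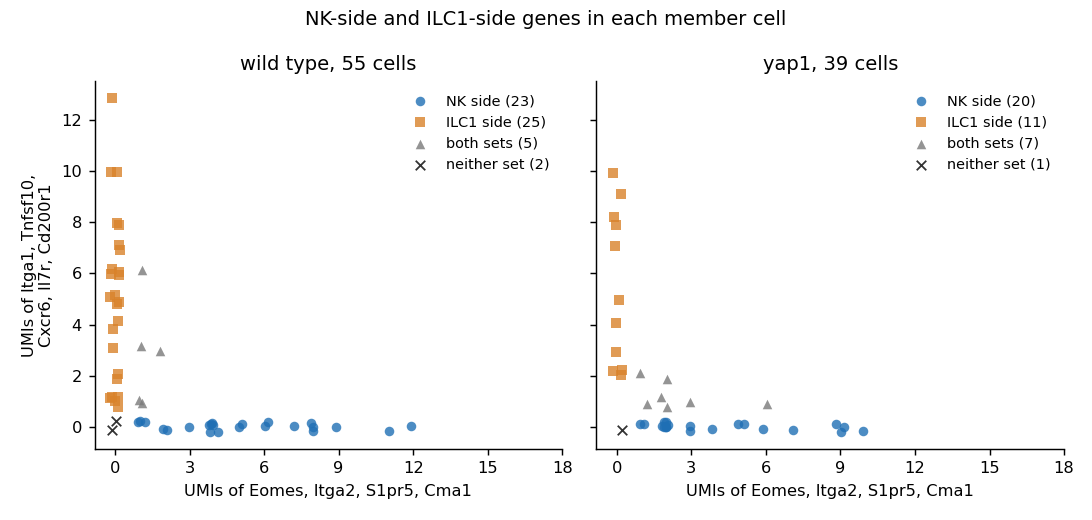
Each member by its UMIs of the NK genes (x axis) and of the ILC1 genes (y axis) that were used for the separation, wild type and yap1, with points shifted slightly so that they do not hide each other. Most members lie along an axis, 23 and 20 on the NK side and 25 and 11 on the ILC1 side, and 5 and 7 hold UMIs of both sets.

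Genes not used for the separation can describe it. Their lists were chosen with earlier results of these data known, so counts over them are a description and no test of the separation. Gzma differed widely between the sides. On the NK side it had a UMI in 23 of 23 wild-type cells (85.2 to 100%), with 10 to 124 UMIs per cell and a median of 54, and in 18 of 20 yap1 cells (68.3 to 98.8%), with a median of 68.5. On the ILC1 side it had a UMI in 2 of 25 wild-type cells (0.984 to 26.03%) and in 2 of 11 yap1 cells (2.28 to 51.8%), with at most 19 and 2 UMIs in a cell. Summed over cells, Gzma stood at 9134 CPM on the NK side and 130.3 on the ILC1 side in wild type, and at 9962 and 31.1 CPM in yap1. When each cell was thinned to 2000 UMIs the shares were 100% and 4% in wild type and 90% and 0% in yap1. B cells, which lack the gene and have median depths of 3708 and 4470.5 UMIs, had a Gzma UMI in 0.746% and 0.738% of cells.

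Of 12 further NK genes with at least 20 UMIs, 10 were lower on the ILC1 side in both libraries, beside 27.6% of all genes, and 1, Itgb7, was higher in both. Irf8 stood at 2069 CPM on the NK side and 352 on the ILC1 side in wild type, and at 1563 and 176 CPM in yap1. Klf2, which keeps lymphocytes in circulation through S1pr1, was 0.221 and 0.134 times as high on the ILC1 side. Zeb2, a transcription factor of late NK maturation, was 0.253 and 0.069 times as high. Prf1 stood at 243 CPM on the NK side against 26.1 in wild type, and at 217 against 10.4 in yap1. Ccl5 was lower on the ILC1 side without being lost, at 5694 against 16608 CPM in wild type and 5415 against 16686 in yap1. Ly6c2 differed in opposite directions, 2.59 and 0.152 times as high on the ILC1 side, and 34.6% of the 50-base words at its transcript end are shared with other genes.

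Of 16 further ILC1 genes, 12 were higher on the ILC1 side in both libraries, beside 27.8% of all genes, and 2 (Ctla2a, Cd3g) were lower in both. Xcl1 stood at 566 CPM on the NK side and 4052 on the ILC1 side in wild type, a ratio of 7.17 (5.66 to 9.17). In yap1 the levels were 905 and 2677 CPM and the ratio was 2.96 (2.37 to 3.70). The wild-type ratio was 3.77 without the member rich in chemokines, and the counts of 12 and 2 genes stayed at 12 and 2. Tmem176b, which encodes a cation channel also known from type 3 innate lymphoid cells, had 2 UMIs on the NK side against 71 on the ILC1 side in wild type, and 0 against 36 in yap1. Rora, a nuclear receptor of innate lymphoid cells, was 13.04 and 6.94 times as high on the ILC1 side. In yap1 14 of its 25 ILC1-side UMIs came from 1 cell, and without the top cell of each side the ratios were 29.6 and 5.34. Cd160 was 11.5 and 5.55 times as high, Ltb, the lymphotoxin beta gene, 11.4 and 2.86 times, Cd7 5.51 and 3.42 times, and Rgs1, which dampens chemokine receptor signalling, 3.66 and 3.81 times. Without the top cell of each side these ratios kept their direction, with Cd160 at 49.6 and 9.76 and Ltb at 19.02 and 2.69. Inpp4b had 0 UMIs on the NK side of both libraries against 24 and 13. The granzyme gene Gzmc was 14.6 and 57.6 times as high, but 72 of the 85 yap1 UMIs came from 1 cell.

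**Figure D3:**
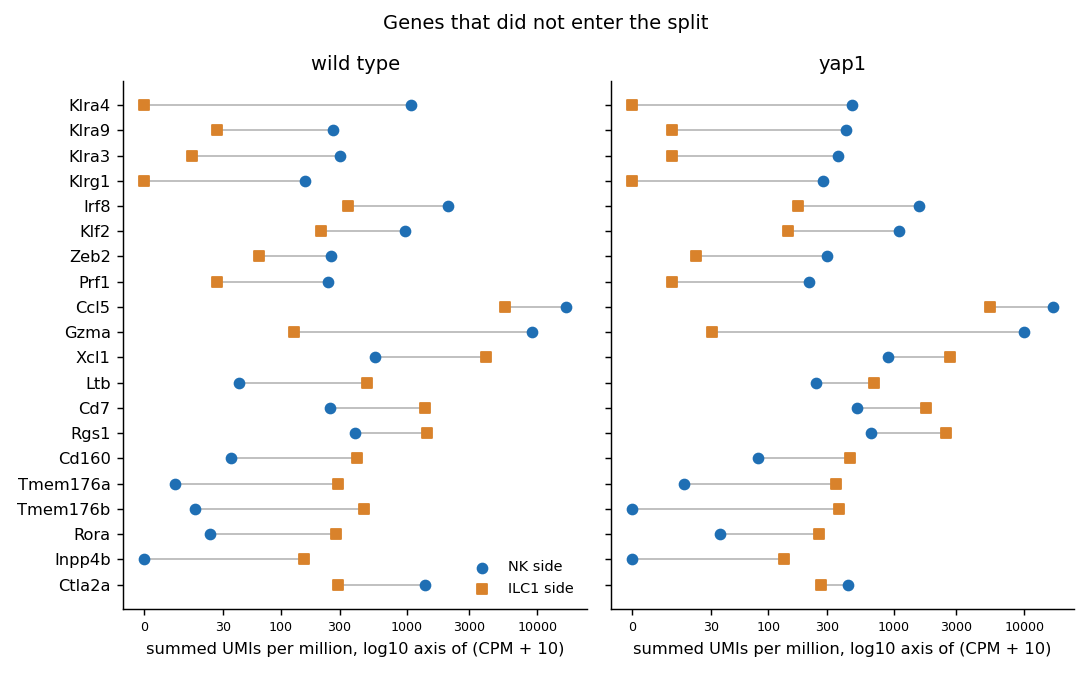
Levels of genes not used in the separation on the NK side (circles) and the ILC1 side (squares), as summed CPM on a log10 axis of CPM + 10, wild type left and yap1 right. The genes from Klra4 to Gzma, and Ctla2a, lie higher on the NK side in both libraries, and the genes from Xcl1 to Inpp4b lie higher on the ILC1 side.

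Ly49 receptors were scarce on the ILC1 side. Of 10 Ly49 genes (Klra1, Klra3 to Klra10 and Klra17), NK-side cells had UMIs of a median of 2 in both libraries, with a maximum of 5 in wild type and 4 in yap1. At least 2 were present in 15 of 23 wild-type and 14 of 20 yap1 NK-side cells. On the ILC1 side 23 of 25 and 9 of 11 cells had none, and 0 cells had 2. Klra8, 1 of these 10 genes, is also a marker that chose the members, so these counts are a description. Among members that held both gene sets, 6 of 7 yap1 cells and 0 of 5 wild-type cells had a Ly49 UMI, and the yap1 cells held 41 of the 99 Klra9 and 23 of the 73 Klra8 UMIs of the yap1 members. The family sits in 1 cluster, in which GENCODE M21 (GRCm38) places Klra4 at chr6:130043731-130067271, Klra8 at chr6:130115226-130129898, Klra9 at chr6:130178675-130193112 and Klra7 at chr6:130218605-130233322, all as protein-coding genes on the minus strand. Klra4, which encodes the activating Ly49D, had 151 UMIs on the NK side against 0 in wild type, and 63 against 0 in yap1, where a further 15 lay in cells with both gene sets. Klra4 and the activating Klra8 occurred together in 6 wild-type and 6 yap1 members. These genes resemble each other, and the windows shown above are a measure of it: upstream of the start, Klra3 and Klra9 are 90% identical and Klra4 and Klra8 84.8%, while the other pairs of the 5 lie between 48.4% and 56.4%. In the last 500 transcript bases, where such libraries are read, 43% of the 50-base words of Klra9 occur in another gene, 31.5% of those of Klra3, 22.1% of Klra7, 13.1% of Klra8 and 4.66% of Klra4, so Klra9, Klra3 and Klra7 counts are uncertain.

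The yap1 library was next set against wild type within the members. Of 1942 genes with at least 50 UMIs, 6.54% were at least 1.5-fold higher in yap1 and 8.91% at least 1.5-fold lower; at 20 UMIs, where lists were counted, these shares were 13.2% and 12.6% of 4249 genes. Counts past 1.5-fold below are to be read against these shares. Of the 4244 genes with a unique symbol and at least 20 UMIs, 2130 were higher and 2114 lower. Their median log2 ratio was close to 0.

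Most NKG2 and NKR-P1 receptors stood within 1.5-fold. Klrk1 had a ratio, yap1 over wild type, of 1.0 (0.851 to 1.17), Klrd1 1.17 (0.988 to 1.38), Klrc1 0.826 (0.687 to 0.991) and Klrc2 0.858 (0.681 to 1.08). Of the 9 measured genes of the NKG2 and NKR-P1 list 4 were higher and 5 lower, with a median log2 ratio of -0.22. The 1 of 9 past 1.5-fold was Klrg1, which the list also counts though it belongs to neither family. Of the 4 measured Ly49 genes outside the rule, 3 were higher and 1 lower, and 2 lay past 1.5-fold higher and 1 past 1.5-fold lower. Klra7 (Ly49G) had 13 UMIs in 4 of 55 wild-type members and 71 UMIs in 12 of 39 yap1 members. That is 7.27% (2.02 to 17.6) and 30.8% (17.0 to 47.6) of cells, or 7.27% and 23.1% after thinning to 2000 UMIs, and a ratio of summed levels of 5.86 (3.22 to 11.6). No B cell in either library had a Klra7 UMI. Klra9 had 41 UMIs in 12 and 99 UMIs in 15 members, 21.8% and 38.5% of cells, with a ratio of 2.59 (1.78 to 3.83). Klra4 went the other way, with 151 UMIs in 11 wild-type and 78 in 8 yap1 members, a ratio of 0.555 (0.417 to 0.734). The others lay closer to 1, with a ratio of 1.19 (0.782 to 1.83) for Klra3 and 1.33 (0.930 to 1.91) for the marker Klra8. On the NK side alone the Klra4 ratio was 0.436, the Klra9 ratio 1.61 and the Klra8 ratio 0.885. Ly49 genes are switched on cell by cell, and cells of 3 pooled mice are not separate samples. Klrg1, a receptor of mature NK cells, had 22 UMIs in wild type, all on the NK side, and 42 in yap1, 37 of them on the NK side, with a ratio of 2.05 (1.20 to 3.61).

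**Figure D4:**
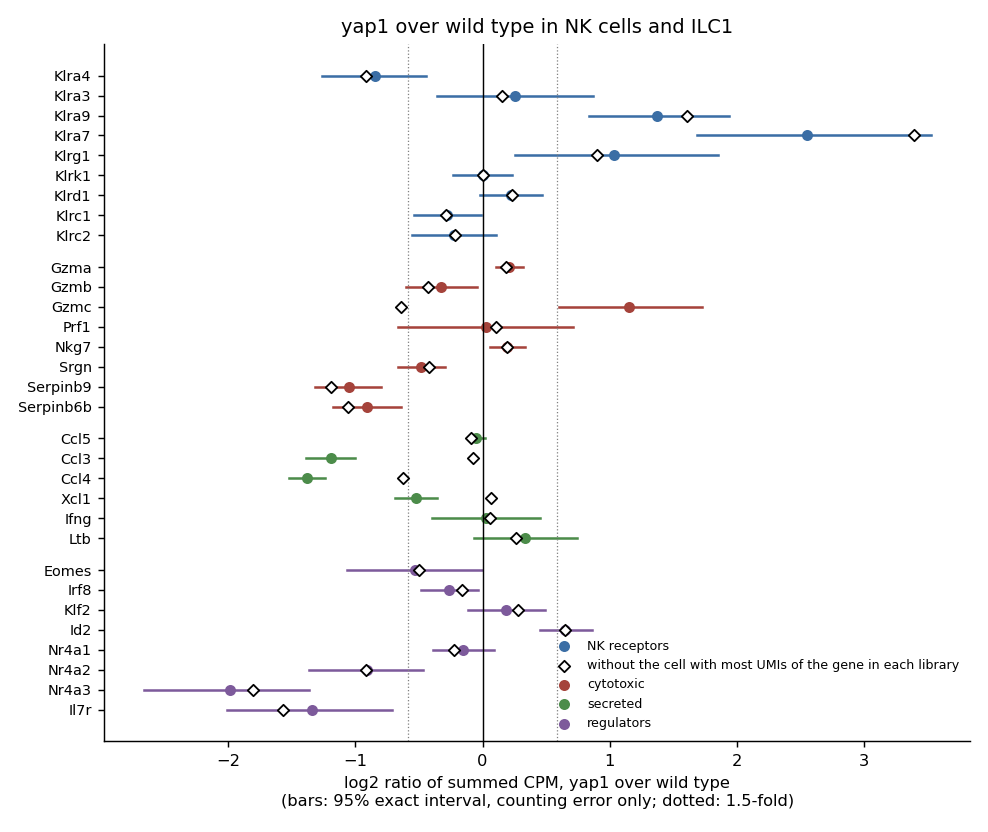
Ratio of yap1 to wild type in the members for genes grouped by role, on a log2 axis, with exact counting intervals and, as open diamonds, the ratio without the cell holding most UMIs of the gene in each library. Without those cells Ccl3 moves from 0.437 to 0.95, Xcl1 from 0.695 to 1.05 and Gzmc from 2.23 to 0.642, while Serpinb9, Serpinb6b and Nr4a3 stay to the left of the line at 1.5-fold lower.

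Of 18 measured cytotoxic genes 10 were higher and 8 lower in yap1, with a median log2 ratio of 0.06. Gzma had a ratio of 1.16 (1.07 to 1.25), Nkg7 1.14 (1.04 to 1.26) and Prf1 1.02 (0.632 to 1.64). The serpin genes stood lower. Serpinb9, whose product inhibits granzyme B inside the cell that carries it, summed to 397 UMIs in the wild-type and 178 in the yap1 members, 1165 and 561 CPM, a ratio of 0.481 (0.401 to 0.576). Serpinb6b, a related inhibitor known to act on granzyme A, had 350 and 174 UMIs and a ratio of 0.534 (0.443 to 0.642). Neither rested on 1 cell, since without the top cell of each library the ratios were 0.439 and 0.481. Their per-cell medians were 8.47 and 3.28, and 9.57 and 4.08, UMIs per 10000, in wild type and yap1 respectively. On the NK side Serpinb9 had a ratio of 0.705 and on the ILC1 side 0.22. T cells had similar ratios, 0.523 for Serpinb9 and 0.512 for Serpinb6b, while B cells stood at 1.42 and 0.473. Gzmb and Ifng, the interferon gamma gene, were chosen after their values were seen: their ratios were 0.799 (0.657 to 0.970) and 1.02 (0.761 to 1.37).

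Of the chemokine genes, Ccl3 and Ccl4, which draw monocytes and lymphocytes, had 794 and 1549 UMIs in wild type and 323 and 554 in yap1, ratios of 0.437 (0.383 to 0.498) and 0.384 (0.348 to 0.423). The wild-type member described above held 500 of the 794 Ccl3 UMIs, 778 of the 1549 Ccl4 UMIs and 311 of the 749 Xcl1 UMIs, while the next wild-type cells held 51, 116 and 48. That cell was among the likely doublets (barcodes scored as 2 cells), lay on the ILC1 side by 1 Il7r UMI, and held 25 of the 99 wild-type Ifng UMIs. Without it the Ccl3 ratio was 1.15, the Ccl4 ratio 0.754 and the Xcl1 ratio 1.16. Per cell the libraries were close: the median was 2.52 UMIs of Ccl3 per 10000 in wild type and 2.65 in yap1, 4.16 and 4.75 for Ccl4, and 8.06 and 11.2 for Xcl1. The same cell reversed the position of both genes between the sides, since on the wild-type ILC1 side Ccl3 was 2.35 times and Ccl4 1.80 times as high as on the NK side with it, and 0.245 and 0.315 times without it. In yap1 these ratios were 0.208 and 0.496. Ccl5 had a ratio of 0.967 (0.921 to 1.01) between libraries.

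**Figure D5:**
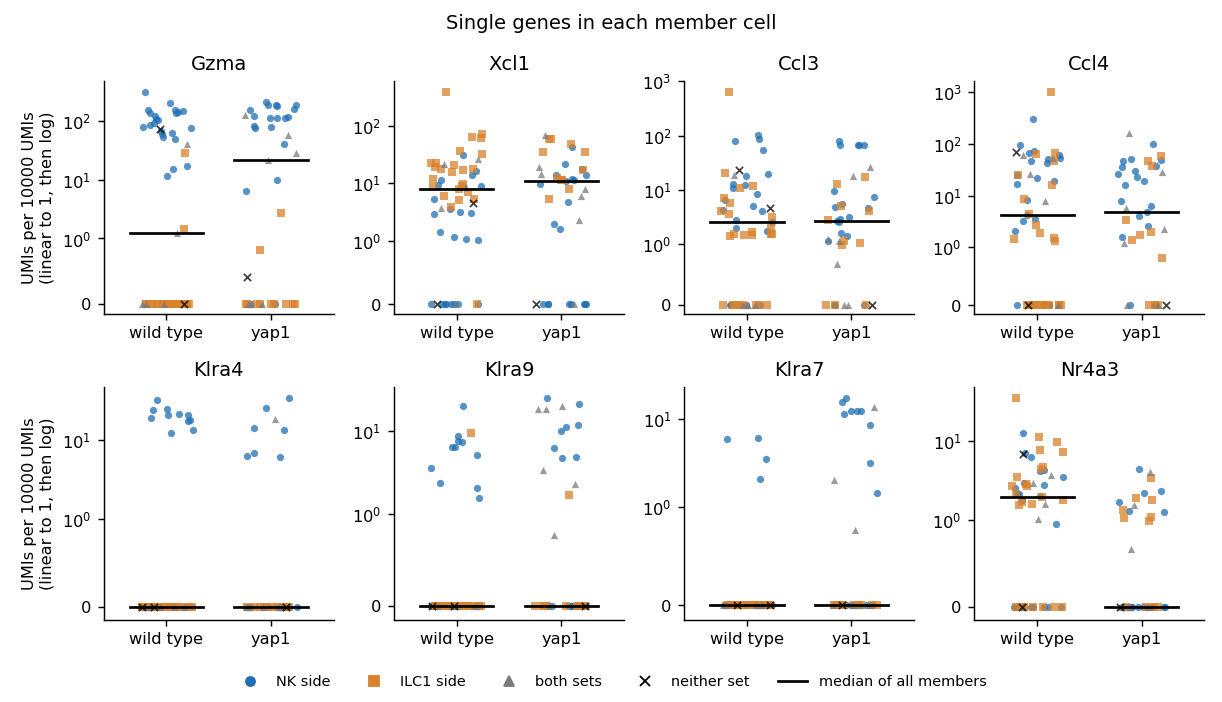
UMIs per 10000 UMIs in each member for Gzma, Xcl1, Ccl3, Ccl4, 3 Ly49 genes and Nr4a3 (axis linear to 1, then log), wild type beside yap1, coloured by side, with the median of all members as a line. The single wild-type cell at the top of Ccl3, Ccl4 and Xcl1 holds 500, 778 and 311 UMIs, while the medians of these genes lie close together.

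Of 30 measured transcription factor genes 14 were higher and 16 lower, with a median log2 ratio of -0.01. Nr4a3, an orphan nuclear receptor gene induced by activation, had 111 UMIs in 36 of 55 wild-type and 26 UMIs in 16 of 39 yap1 members, 326 and 81.9 CPM, a ratio of 0.252 (0.157 to 0.388). Without the top cells it was 0.286. Its ratio was 0.383 on the NK side and 0.224 on the ILC1 side, where it was 0.352 without the wild-type member rich in chemokines, which held 28 of the 71 wild-type UMIs of that side. It stood at 0.427 in T cells and 0.576 in B cells. Nr4a2 had a ratio of 0.533 (0.388 to 0.724) and Nr4a1 0.901 (0.764 to 1.06), so the interval of Nr4a1 lay above those of both paralogues. Nr4a2 stood at 0.903 when members with at least 3 UMIs of Kupffer cell, neutrophil or endothelial markers were left out, which keeps 33 and 25 members. Id2, the inhibitor of E proteins that innate lymphoid cells depend on, had 334 and 489 UMIs and a ratio of 1.57 (1.37 to 1.81), with a UMI in 50 of 55 and 39 of 39 members. Its ratio was 1.80 on the NK side and 1.31 on the ILC1 side, and 0.976 in T cells. The deepest yap1 member held 64 of the 489 Id2 UMIs. Over 15 alternatives the Id2 ratio lay between 1.44 and 1.61. Eomes stood lower, at 232 and 161 CPM, a ratio of 0.693 (0.478 to 0.998). It is 1 of the NK genes of the separation, with a UMI in 20 of 23 wild-type and 17 of 20 yap1 NK-side cells. Its ratio on the NK side alone, 0.557 (0.370 to 0.829), is therefore a description. Irf8 had a ratio of 0.835 (0.714 to 0.975), which lay between 0.777 and 1.11 over 15 alternatives. The deepest yap1 member held 34 of its 293 yap1 UMIs.

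More cytokine receptor and chaperone genes were lower than higher, beside 2114 lower and 2130 higher among all 4244 genes. Of 17 measured cytokine receptor genes 13 were lower and 4 higher, with a median log2 ratio of -0.27. Past 1.5-fold lay 3 lower and 1 higher. The same genes had medians of -0.22 in T cells and -0.08 in B cells. Il7r, the interleukin 7 receptor chain, stood at 232 CPM in wild type and 91.4 in yap1, a ratio of 0.394 (0.248 to 0.610). It is 1 of the ILC1 genes of the separation, so its ratio on the ILC1 side alone, 0.524, is a description. The interferon gamma receptor chain Ifngr1 had a ratio of 0.731 (0.621 to 0.859). Of 12 heat shock genes 10 were lower and 2 higher, with a median of -0.37, and past 1.5-fold lay 3 lower and 0 higher. The heat shock medians were -0.09 in T cells and -0.14 in B cells. Hspa1b had 102 UMIs in 8 wild-type members and 20 in 4 yap1 members, a ratio of 0.211 (0.123 to 0.342), and in T cells it stood at 1.498. Of the wild-type UMIs 45 and 37 came from 2 cells, and without both the ratio was 1.04. The constitutive Hspa8 had a ratio of 0.982 (0.877 to 1.10).

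Only 8 of the 24 Hippo and YAP pathway genes in the table had 20 UMIs, 5 of them lower and 3 higher, with a median of -0.56. Gadd45b had a ratio of 0.499 (0.378 to 0.655) and Birc2 of 0.418 (0.240 to 0.703), and both also respond to NF-kB. Vgll4, a cofactor that competes with YAP for TEAD proteins, had a ratio of 0.600 (0.403 to 0.882), and the kinase gene Stk4 0.767 (0.498 to 1.17). With Yap1 and Wwtr1 at 0, these values are no measure of YAP in the members. Between the libraries, the 16 further ILC1 genes had 6 higher and 10 lower (median -0.34). The 12 further NK genes had 9 higher and 3 lower (0.24). All 4 measured ILC1 genes of the separation were lower (-0.75). Other lists lay closer to 0, among them cytokine signalling genes with 6 higher and 10 lower (-0.12). Signalling adaptors had 12 higher and 6 lower (median 0.09), coreceptors 5 and 10 (-0.03), homing genes 7 and 7 (-0.05), interferon-stimulated genes 9 and 7 (0.13), immediate early genes 11 and 12 (-0.07), MHC class I genes 11 and 4 (0.14), and cell cycle genes 3 and 3 (0.07). Among homing genes, Cxcr4 had a ratio of 0.625 (0.485 to 0.801), with 1.04 on the NK side and 0.185 on the ILC1 side, where 86 and 10 UMIs were found. The selectin ligand gene Selplg had a ratio of 0.764 (0.642 to 0.909). Ctla2a, a cysteine protease inhibitor gene, had a ratio of 0.475 (0.380 to 0.589), at 0.321 on the NK side and 0.92 on the ILC1 side, and 0.794 in T cells.

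The highest ratios among genes with at least 100 UMIs came from the deepest yap1 member. The MHC class II genes Cd74, H2-Aa and H2-Eb1 had ratios of 15.1, 15.9 and 49.8, and the protease inhibitor gene Cst3 11.9. Without that cell these ratios were 0.767, 0.388, 0.776 and 0.851. Some of the lowest ratios were also found in T and B cells. Wdr89 had 322 and 28 UMIs and a ratio of 0.093 (0.061 to 0.138) in the members, 0.107 in T cells and 0.111 in B cells. Lars2, a mitochondrial leucyl-tRNA synthetase gene, had a ratio of 0.386, with 0.484 and 0.524 in T and B cells, and Rnaset2b 0.408, with 0.365 and 0.450. Lower in the members than in both were Ifrd1, at 0.340 (0.236 to 0.480) against 0.681 and 0.718, and Dgat1, which makes triglyceride, at 0.390 (0.260 to 0.573) against 0.610 and 1.23. In Rnaset2b 35.8% and in Wdr89 19.3% of the 50-base words at the transcript end are shared with other genes.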

How the data were processed

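The authors deposited raw UMI counts per gene and cell barcode for both libraries, and per the submitters' processing notes Bowtie 0.12.2, Seurat and the mm10 build were used; the sources used here do not name the counting program. Group labels came from the genotype field. The libraries held 30386545 and 34234353 UMIs. Members were taken by the rule given above, UMIs were summed over members per library and divided by their total (CPM), and ratios were formed yap1 over wild type, with exact Poisson, conditional binomial and Clopper-Pearson intervals at 95% (Python 3.11.15, scipy 1.17.1). Doublets were scored with Scrublet in scanpy 1.11.5 and the top 4% of each library taken as likely doublets; they were kept in the values unless stated. Genes named were the 4 markers, Yap1, Wwtr1, Lyz2, Drd2, up to 4 members of each list by UMIs and 3 by ratio, the 10 highest and 10 lowest genes by interval bound, the 20 highest over T cells, and the genes used or held out in the NK and ILC1 separation, from which those with a clear role were described. T cell receptor constant genes were not used. A few genes planned for the lists, 1 of them for the NK and ILC1 separation, are not reported here and were left out of the lists after the values were seen, which moved the shares of the sides. Members and lists were chosen with earlier results of these data known. The interval and ratio code was checked on simulated counts. Promoter windows came from RefSeq (GRCm38), gene positions from GENCODE M21.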

Additional observations from a re-analysis of the deposited data

How the results depend on the processing

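With 1 library per genotype every value rests on counting error alone, and the depth of 94 cells limits the genes that can be described. The share ratio lay between 0.781 and 0.908 over 11 alternatives. Other scalings shifted all log2 ratios by 0.035 and -0.017. The alternatives that left out the deepest yap1 member, the wild-type member with most Ccl3, the 2 wild-type members with most Hspa1b or the top cell of each gene or side, and the one that allowed 1 Cd3 UMI, were chosen after seeing the data. No paired analysis was possible because the values come from no test and each group has 1 library. The count of genes higher and lower past 1.5-fold (127 and 173) was 213 and 371 with at least 1 marker UMI, 16 and 22 with cells thinned to 1000 UMIs, 559 and 534 among genes with at least 20 UMIs, and 36 and 64 at 100 UMIs; it fell to 77 higher without the members with Kupffer cell, neutrophil or endothelial markers, which left 33 and 25 cells. The median of the cytokine and chemokine list (-0.32) was 0.083 without likely doublets, 0.047 without the members with those markers and 0.066 without the member with most Ccl3, since each leaves out that member. For the same reason the Ccl3 ratio turned to 1.18, 1.32 and 1.15. The ILC1 side held 27.3% of the wild-type members after thinning, when fewer UMIs of the separating genes are left (45.5% unthinned). In yap1 (28.2% unthinned) its share lay between 15.4% and 30.6% over 11 alternatives. Gzmc turned to 0.317 without members with those markers and to 0.642 without its top cells. Rora turned from 0.586 to 1.01 without those members and to 1.06 after thinning; the cause was not tested. Cd74, H2-Aa, H2-Eb1 and Cst3 turned to 0.761, 0.398, 0.752 and 0.824 with at least 3 marker UMIs, to 0.767, 0.388, 0.776 and 0.851 without the deepest yap1 member, and to 0.854, 0.428, 0.906 and 0.910 without top cells, as each of these leaves out that cell.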

Other observations

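Ly49 genes also differed in how they met in the same cell. In wild type the 4 members with Klra7 UMIs all had Klra4 UMIs as well, while in yap1 4 of 12 did and 8 had Klra7 without Klra4. Klra4 and Klra9 met in 5 members of each library. These are counts of cells from 2 libraries, with no test between them.

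The barcodes set aside for 2 or more Cd3 UMIs, which passed the other exclusions, lay between the members and the T cells for several effector genes. In wild type these 61 barcodes had Gzma at 1083 CPM, compared with 4015 in the members and 207 in T cells, and in yap1 the 69 barcodes had 1292, compared with 4642 and 26.8. Xcl1 stood at 822 and 579 CPM in them, against 80.1 and 164 in T cells. Ncr1 stood at 68.5 and 61.7 CPM, compared with 605 and 580 in the members. Their Cxcr6 levels, 142 and 125 CPM, were above those of the members, 47.0 and 37.8. These barcodes were selected for the same receptor genes as the members, and whether they are 1 cell type was not tested.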
